A study of Ulva lactuca with 4 samples.

Results

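The transcripts described here are 169 contigs of a de novo assembly of the green seaweed Ulva lactuca that had many reads in submerged thalli and at most 12.5% of that level in each of 3 libraries from desiccated thalli. They were selected on these same values. Reads were scaled by a size factor per library, and a contig entered the set when it had at least 200 scaled counts in the control and when its scaled count + 1 lay at least 8-fold below that of the control at every duration, which were 24 h, 36 h and 72 h. Of the 105451 contigs of the assembly, 28136 had 200 scaled counts in the control, and the 169 make up 0.601% of these. The ratios to the control chose the members, so they are given as a description and without a test.

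Each condition had 1 library, made from total RNA of whole thalli that had been acclimatised to the laboratory after collection. The desiccated thalli were kept at 20% moisture for 24 h, 36 h or 72 h, and the control thalli were always submerged. How many thalli went into a library and at what time the control was taken is not stated in the labels. The control library held 52643595 reads on contigs, the 24 h library 74243310, the 36 h library 71024673 and the 72 h library 53279365. Nothing below can be set against a spread between thalli. Intervals are 95% intervals by the exact Clopper-Pearson method. They cover counting error only, and reads without molecular identifiers are not independent molecules.

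Ulva grows as a thin sheet of cells on the shore, is uncovered at low tide and loses water quickly in air. Photosynthesis and growth slow as the thallus dries, and the pool of messenger RNA is reshaped by changes in transcription and in RNA breakdown. RNA sequencing measures a transcript's share of that pool. In whole thalli, fewer cells that express a transcript and less of it in each cell cannot be told apart. The tables pair no contig with a gene, a protein or an organism, so no function is given to any member and contigs keep their assembly identifiers. Contigs whose identifiers share the c and g numbers belong to 1 cluster of the assembly, often pieces or versions of the transcripts of a single gene.

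Together the members took 2.21% of all reads in the control (95% interval 2.206% to 2.214%), 0.0448% at 24 h (0.0443% to 0.0453%), 0.0640% at 36 h (0.0634% to 0.0646%) and 0.0533% at 72 h (0.0527% to 0.0539%). That is 1163341 reads in the control, 33263 at 24 h, 45439 at 36 h and 28386 at 72 h. The control reads were concentrated on few contigs, with 5 members holding 50% of them and 46 members holding 90%. Without the 2 most abundant members, the shares were 1.38% in the control, 0.0447% at 24 h, 0.0637% at 36 h and 0.0532% at 72 h. The control share therefore rests in large part on that pair, and the desiccated shares do not.

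Per contig, the scaled count in the control ranged from 200.1 to about 300700, with a median of 1141. The median was 22.2 scaled counts at 24 h, 25.3 at 36 h and 29.2 at 72 h. As a percentage of the control, the median member stood at 2.75% at 24 h, 3.54% at 36 h and 2.70% at 72 h. Over all 28136 contigs with 200 scaled counts in the control, the medians were 90.02%, 88.9% and 85.7% at the same durations. Of those contigs, 3.8% were at or under 12.5% of the control after 24 h, 1.99% after 36 h and 1.77% after 72 h. The members are part of each of these shares. Since 1 control library enters each ratio, these shares cannot be multiplied to give an expected overlap.

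**Figure D1:**
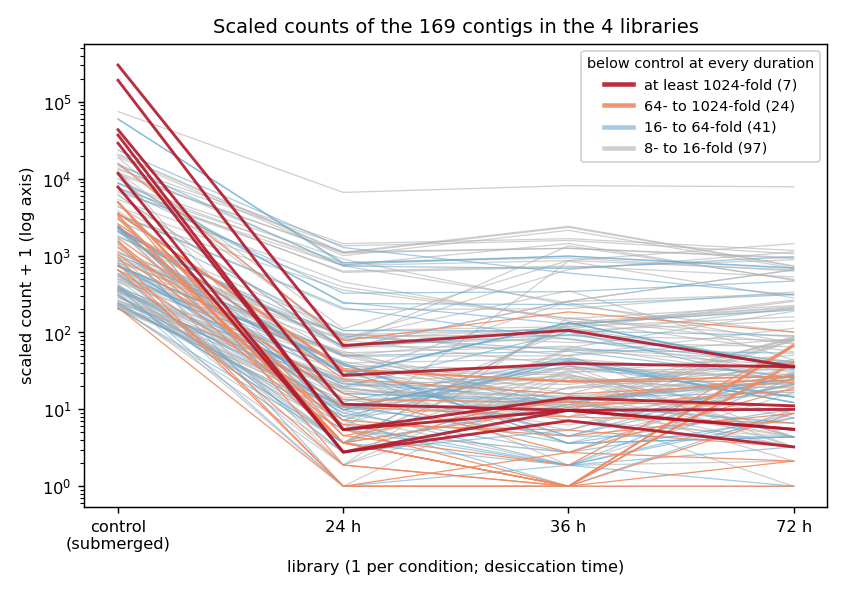
Scaled count + 1 of each of the 169 contigs (log axis) in the control, 24 h, 36 h and 72 h libraries, 1 line per contig, coloured by how far below the control the contig lay at every duration. The 7 contigs at least 1024-fold lower started between 7804 and 300700 scaled counts in the control, and the members had a median of 22.2 after 24 h, 25.3 after 36 h and 29.2 after 72 h.

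The contig with the most reads in the control was c57626_g1_i1, with 265993 reads there, 75 at 24 h, 121 at 36 h and 31 at 72 h. Its scaled count stood at 0.0222% of the control at 24 h (0.0174% to 0.0278%), 0.0351% at 36 h (0.0291% to 0.0420%) and 0.0116% at 72 h (0.00787% to 0.0164%). The interval at 72 h lay below those at 24 h and 36 h, so the 72 h library held fewer of its reads than counting error covers. The next contig, c19261_g3_i1, had 168708 reads in the control, 30 at 24 h, 44 at 36 h and 31 at 72 h. It stood at 0.0140% of the control at 24 h (0.00943% to 0.0200%), 0.0201% at 36 h (0.0146% to 0.0270%) and 0.0183% at 72 h (0.0124% to 0.0259%), and these intervals overlap. The pair also had the lowest upper bounds of the interval over the 3 durations, so the most abundant members were also those whose counts bound the reduction most tightly. In the control they made up 37.4% of the members' reads, and at most 0.363% in any desiccated library.

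How far the members were reduced varied over more than 2 orders of magnitude. By their highest desiccated value, 97 members lay between 6.25% and 12.5% of the control, 41 between 1.56% and 6.25%, 24 between 0.0977% and 1.56%, and 7 at or under 0.0977%, which is at least 1024-fold lower. The last 7 contigs lie in 6 clusters and held 47.1% of the members' reads in the control. Beside the pair above they include c43182_g1_i1, with 38318 reads in the control, 12 at 24 h, 10 at 36 h and 8 at 72 h, and c21883_g1_i1, with 25597, 5, 10 and 4 reads. These 2 were singled out after their values were seen. The fewest control reads among the 7 were 6904. A contig near the control minimum of 200 could not show such a ratio, because the 1 added to each scaled count alone keeps it above that limit.

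The share of contigs that were members was highest among the most abundant contigs of the control. Of the 471 contigs with 10000 or more scaled counts in the control, 25 were members, which is 5.31%. Between 1000 and 10000 it was 65 of 11769, or 0.552%, and between 200 and 1000 it was 79 of 15896, or 0.497%. The 25 abundant members lie in 16 clusters, and the 471 contigs in 246. Their median level stood at 1.36% of the control at 24 h, 5.42% at 36 h and 3.11% at 72 h. The control count chose the contigs and also divides the ratio, so an upward error in that library would move a contig toward the set. For abundant contigs the counting part of that error is small.

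Among the abundant members, c11212_g1_i1 had 65972 reads in the control, 7468 at 24 h, 9291 at 36 h and 6991 at 72 h, which was the third highest control count. It stood at 8.89% of the control at 24 h (8.68% to 9.11%), 10.9% at 36 h (10.6% to 11.1%) and 10.5% at 72 h (10.3% to 10.8%). Its level in the desiccated libraries was thus held within a narrow range, and it alone took 22.5% of the members' reads at 24 h, 20.4% at 36 h and 24.6% at 72 h. It was singled out after its values were seen.

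At the other end, reads all but vanished for a few contigs of moderate abundance. Only 4 members had at most 3 reads in each desiccated library, and 16 had at most 10. The contig c24357_g1_i1 had 831 reads in the control and 0 in each desiccated library. With 3 counts in place of 0, it was lower than in the control by at least 352-fold after 24 h, at least 359-fold after 36 h and at least 279-fold after 72 h. These limits take the control count as it stands, and the upper bounds of the 95% intervals were 0.35%, 0.3435% and 0.442% of the control. The contig c58657_g1_i1 had 695 reads in the control, 0 at 24 h, 0 at 36 h and 1 at 72 h. The other 2 had 185 and 181 reads in the control and at most 3 in any desiccated library. By library, 6 members had 0 reads at 24 h, 12 at 36 h and 4 at 72 h, so 152 of the 169 were read in every desiccated library.

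The threshold passes through a continuous range of values. Just inside it, c25987_g1_i8 reached 12.49% of the control at 36 h, with 816 reads in the control, 91 at 24 h, 131 at 36 h and 34 at 72 h, and c27088_g1_i7 reached 12.45%, with 6629, 911, 1068 and 559 reads. Just outside it, c26740_g1_i10 reached 12.59% at 72 h, with 1230 reads in the control, 8 at 24 h, 84 at 36 h and 155 at 72 h, and c25987_g1_i1 reached 12.65% at 36 h, with 1135, 141, 185 and 45 reads. The contigs c25987_g1_i8 and c25987_g1_i1 come from the same cluster, 1 on each side. For 122 of the 169 members the upper bound of the counting interval lay at or under 12.5% at every duration. For the other 47 it did not, and 71 further contigs had a lower bound at or under 12.5% at every duration.

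The order of the desiccated libraries was not set by the rule, which bounds each of them only from above. Members were compared where 1 library of the pair had at least 50 scaled counts. Many pass this minimum only through the library where they are high, so the shares over all contigs in this paragraph are no like background. On this footing 36 h was at least 4-fold above 24 h for 19 of 68 contigs and at least 4-fold below for 2. Over all contigs with 200 scaled counts in the control, 3.05% were higher and 1.25% lower in the same comparison. The 27.9% of members that were higher come from 10 clusters, and the 2 lower members from 2. Between 72 h and 24 h, 21 of 73 members were at least 4-fold higher at 72 h and 9 were lower, against 4.28% higher and 2.5% lower over all such contigs. The 21 come from 10 clusters and the 9 from 8, so by cluster the directions were closer. Between 72 h and 36 h, 11 of 76 were higher and 3 lower, against 2.18% and 0.609%. The 11 come from only 4 clusters. In each of the 3 pairs more members were higher than lower in the later library, except that 72 h and 36 h gave 37 higher and 37 lower at 2-fold and 20 scaled counts, and 0 higher and 1 lower at 4-fold and 200, and the minimum used next turned that pair round.

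Most members have few reads after desiccation, so many enter such a comparison only through the library where they are high, which builds in a gap, whereas nearly all other contigs pass in any case. The shares above are therefore a description, and the percentages over all contigs are no like background for them. A minimum of 50 scaled counts was also set in the desiccated library outside the pair, a choice made after the data were seen. It does not use the values compared, but levels in the desiccated libraries can go together, so it may still favour a direction. The members were also chosen for low values in both compared libraries, so all contigs are no like background here either. With this minimum, 36 h was at least 4-fold above 24 h for 13 of 61 members and below for 2, against 2.98% and 1.17% of 27753 contigs. The 13 come from 7 clusters and the 2 from 2. Between 72 h and 24 h, 16 of 63 members were higher and 6 lower, against 4% and 2.38% of 27653 contigs. The 16 come from 8 clusters and the 6 from 6, so by cluster the directions were close. For 72 h and 36 h, 2 of 53 members were higher and 3 lower, against 1.73% and 0.496% of 27443 contigs, so the excess of higher members at 72 h over 36 h was absent with this minimum. With 50 to 500 scaled counts in the outside library, 26.2% of 42 members and 5.67% of 9542 contigs were 4-fold apart between 36 h and 24 h. For 72 h and 24 h it was 40.5% of 42 members and 9.14% of 9457 contigs, and between 72 h and 36 h 14.7% of 34 members and 4.39% of 9119 contigs. Counts in the compared libraries themselves were not matched between members and other contigs. Whether thalli of 1 duration differ among themselves by as much cannot be read from single libraries.

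**Figure D2:**
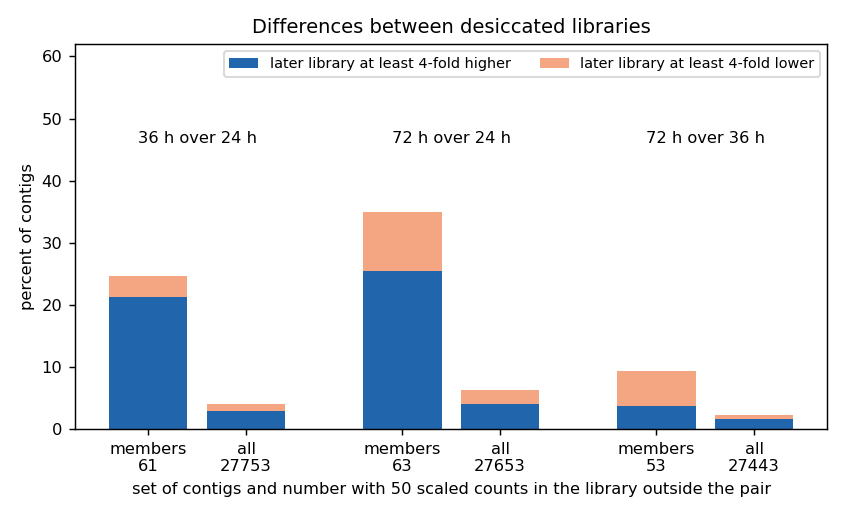
Percentage of contigs at least 4-fold higher (blue) or lower (orange) in the later of 2 desiccated libraries, for members and for all contigs with 200 scaled counts in the control, where the desiccated library outside the pair had 50 scaled counts, with the number of contigs under each bar. Members were 4-fold apart in 24.6%, 34.9% and 9.43% of cases, against 4.15%, 6.37% and 2.22% of all contigs. The members were chosen for low values in these libraries, so all contigs are no like background.

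Over the 3 desiccated libraries together, 80 members had 50 scaled counts in at least 1. This minimum keeps a member that is high in a single library. Nearly all other contigs pass it in any case, as 27995 of those with 200 scaled counts in the control do. The shares over these 27995 are given beside the members, but they are no like background. Contigs of 1 cluster are counted separately here. The highest of the 3 values was at most 2-fold above the lowest for 22 of the 80 members (27.5%) and at least 4-fold above it for 43 (53.8%). Over the 27995 contigs it was 62.7% and 9.21%. The lowest value came at 24 h for 36.2%, at 36 h for 21.2% and at 72 h for 42.5% of the 80. These shares lie near the 37.3%, 25.1% and 37.6% of the 27995 contigs. The highest value came at 24 h for 18.8%, at 36 h for 41.2% and at 72 h for 40% of the 80, against 38.4%, 31.5% and 30.2% of the 27995. A level at least 2-fold higher at each step from 24 h to 36 h to 72 h was found for 3 members, and one at least 2-fold lower at each step for 6. A level at 36 h at least 2-fold above both neighbours was found for 11, and one at least 2-fold below both for 9. Over the 27995 contigs these patterns were found, in the same order, for 0.775%, 0.714%, 1.8% and 2.12%.

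The contigs named for a higher level at 36 h than at 24 h, by the lower bound of their ratio, were c14320_g1_i2 and c21684_g1_i3. The first had 11213 reads in the control, 5 at 24 h, 971 at 36 h and 250 at 72 h. Its level at 36 h was 191-fold that at 24 h (81.5 to 589), and it stood at 0.0350% of the control at 24 h, 6.69% at 36 h and 2.22% at 72 h. The other contig of its cluster, c14320_g1_i1, had 16662, 79, 1529 and 434 reads and stood at 0.373% of the control at 24 h. That contig was added after its values were seen, and the 191-fold ratio describes c14320_g1_i2 and not the cluster. The contig c21684_g1_i3 had 1210 reads in the control, 1 at 24 h, 177 at 36 h and 62 at 72 h. Its ratio of 36 h to 24 h, 174 (30.8 to 6908), rests on 1 read. The contigs c14320_g1_i2 and c21684_g1_i3 were close to unread at 24 h alone and remained below 12.5% of the control afterwards. In the other direction, c27761_g1_i1 was 5.83-fold lower at 36 h than at 24 h (3.05 to 12.3). It had 409 reads in the control, 63 at 24 h, 11 at 36 h and 2 at 72 h. The contig c17251_g1_i2 was 5.90-fold lower (2.99 to 12.9), with 438, 58, 10 and 39 reads, so its low value at 36 h was followed by a higher one at 72 h.

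Between 72 h and 24 h, c20645_g1_i2 was 80.5-fold higher at 72 h (27.1 to 394). It had 2031 reads in the control, 3 at 24 h, 154 at 36 h and 191 at 72 h. The contig c14320_g1_i2, given above, was 63.3-fold higher (26.7 to 197). The contigs c28055_g1_i1 and c28055_g1_i2 of 1 cluster were 28.5-fold (9.48 to 140) and 35.2-fold (9.46 to 295) lower at 72 h. The first had 962 reads in the control, 108 at 24 h, 56 at 36 h and 3 at 72 h, and the second had 714, 89, 42 and 2 reads. Both contigs were lower at each longer duration.

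Between 72 h and 36 h, the highest ratios belonged to c26384_g1_i8 and c26384_g1_i5, also of 1 cluster. The first had 4460 reads in the control, 3 at 24 h, 0 at 36 h and 62 at 72 h, and the second had 4266, 5, 0 and 59 reads. With 3 counts in place of 0 they were at least 26.6-fold and at least 25.3-fold higher at 72 h than at 36 h, limits that take the count at 72 h as it stands. The lower bounds of the 95% intervals of these ratios were 21 and 19.95. Even so they stood at 1.38% of the control at 72 h. The contig c25103_g1_i1 was 8.18-fold lower at 72 h than at 36 h (5.85 to 11.7). It had 3896 reads in the control, 93 at 24 h, 400 at 36 h and 38 at 72 h. The contig c13505_g1_i1 was 4.96-fold lower (3.004 to 8.67) and had 1819, 21, 115 and 18 reads. For both of these, 36 h was the highest of the desiccated libraries.

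The members lie in 104 clusters. Of these, 75 clusters hold 1 member and 29 hold 2 or more, 94 members in all. A cluster with every contig in the set and more than 1 contig was found 21 times. Of the members, 62.7% (106 of 169) were part of a cluster of several contigs, against 93.9% of all 28136 contigs with 200 scaled counts in the control. The contigs at or under 12.5% of the control at 1 or 2 durations lay between 59.0% and 90.9%, so a low share was seen in other reduced contigs too.

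Within the 29 clusters, contigs of 1 cluster tended to keep the same residual level. The highest member was at most 2-fold above the lowest in 25 clusters at 24 h, in 23 at 36 h and in 27 at 72 h. Contigs of a cluster can share reads, and the labels do not state how reads matching several contigs were counted, so this likeness is not independent evidence. The cluster with the most members, c26384_g1, had 10 of 10 contigs in the set. They had 568 to 4460 reads in the control, at most 5 reads at 24 h and at most 1 at 36 h. At 72 h they had 7 to 62 reads and stood between 1.22% and 1.599% of the control. All 10 contigs were therefore close to unread at 24 h and 36 h and present at a low level at 72 h.

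The other clusters with 4 or more members differed in their course, and this cut was set after the values were seen. The 7 of 8 contigs of c27088_g1 in the set stayed near the threshold, at a median of 9.81% of the control at 24 h, 11% at 36 h and 7.99% at 72 h. The 6 contigs of c25657_g1 were low throughout, at medians of 0.926%, 0.657% and 0.707%. Of the 7 contigs of c26378_g1, c26378_g1_i3 (5 reads) and c26378_g1_i6 (29 reads) stood apart at 36 h, at 0.349% and 8.002% of the control. The rest lay between 1.79% and 2.02% there. At 24 h the 7 ranged from 0.304% to 0.546%, and the lowest had 0 reads. The 4 contigs of c20211_g1 had 38 to 44 reads at 24 h, 1 to 4 at 36 h and 1 to 3 at 72 h, and those of c21877_g1 had 11 to 31, 41 to 153 and 12 to 30. The first of these clusters was highest at 24 h and the second at 36 h. The 4 contigs of c23146_g1 were also highest at 36 h, at a median of 11.3% of the control, against 5.32% at 24 h and 3.56% at 72 h. The 4 members among the 10 contigs of c25987_g1 had medians of 9.63%, 12% and 4.24%.

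**Figure D3:**
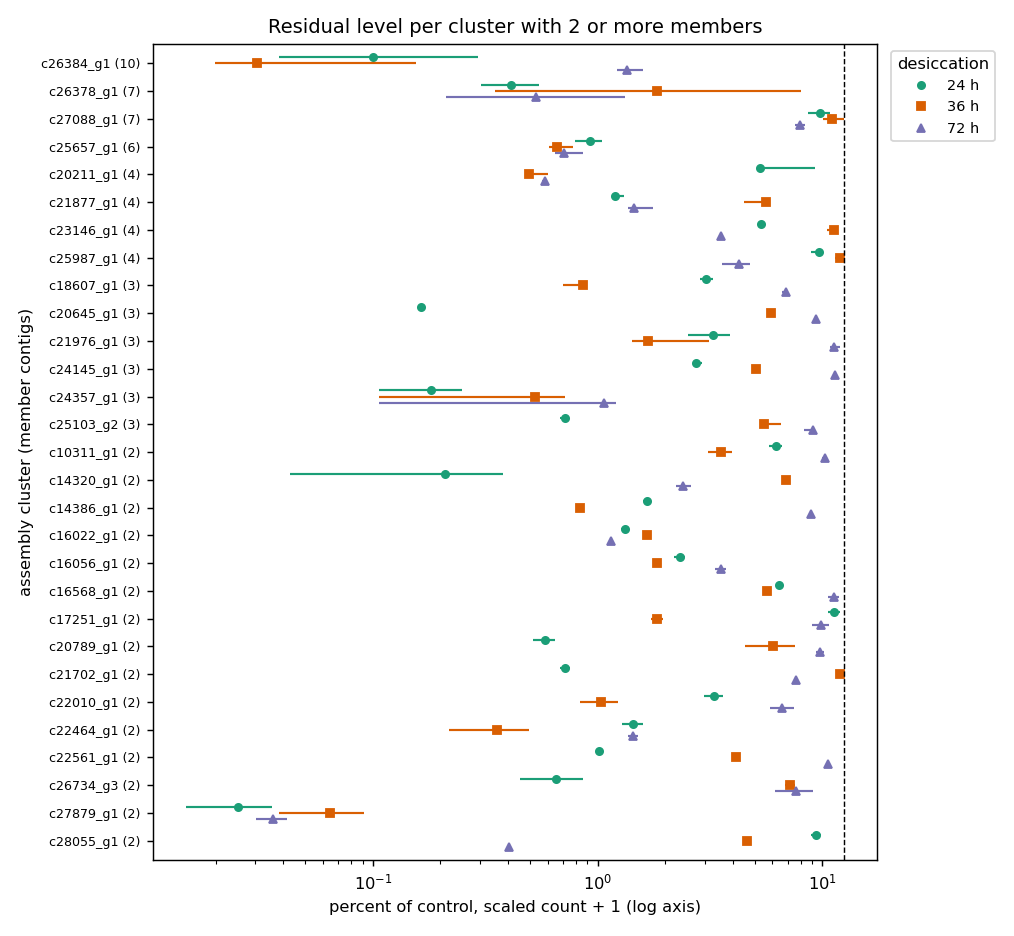
Level as a percentage of the control (scaled count + 1, log axis) at 24 h, 36 h and 72 h for the 29 clusters with 2 or more members, with symbols at the median over the member contigs and lines from the lowest to the highest. The dashed line marks 12.5%. In c26384_g1 the medians stood at 0.1003%, 0.0304% and 1.35%, whereas in c28055_g1 they stood at 9.41%, 4.62% and 0.402%. The contigs of c26384_g1 had at most 1 read at 36 h, so their median there is set by the 1 added to each scaled count.

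The 104 clusters hold 52 further contigs that are no members, called partners here, and the rule did not use their values except to leave them out. Of these, 22 had under 200 scaled counts in the control. The other 30 passed 12.5% of the control at 1 duration or more, 8 of them at 24 h, 26 at 36 h and 13 at 72 h. Among the 46 partners with at least 50 scaled counts in the control, the median stood at 6.15% of the control at 24 h, 13.0% at 36 h and 12.1% at 72 h. The medians over all 38049 contigs with 50 scaled counts in the control were 92.2%, 89.4% and 89.3%. At most 50% of the control at every duration was found for 37 of the 46 partners and for 9.48% of all such contigs. Partners with values just over the threshold, as in c25987_g1, are part of this count, and they can share reads with members. The 52 partners lie in only 20 clusters, and contigs of 1 cluster are counted separately here.

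**Figure D4:**
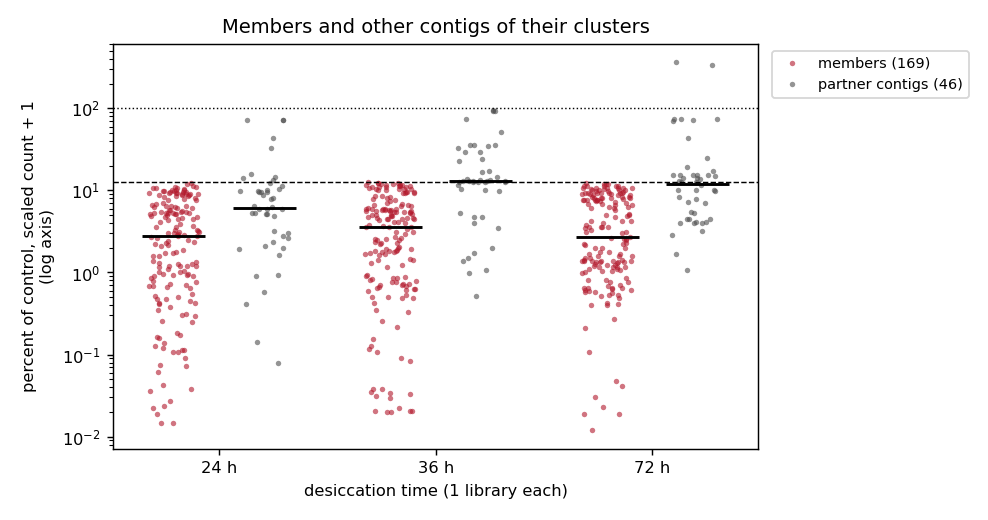
Level as a percentage of the control (scaled count + 1, log axis) for the 169 members and for 46 partner contigs of their clusters with at least 50 scaled counts in the control, with bars at the medians, a dashed line at 12.5% and a dotted line at 100%. The partners' medians were 6.15% at 24 h, 13.0% at 36 h and 12.1% at 72 h, and 2 partners lay above 300% at 72 h.

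Summed over all contigs of a cluster, 97 of the 104 clusters stood at or under 12.5% of the control at every duration, and 100 at or under 25%. The sum passed 12.5% at some duration in 7. In c27510_g1, the 1 member among 8 contigs had 208 reads in the control, 29 at 24 h, 25 at 36 h and 16 at 72 h, while the cluster sum stood at 52.2%, 67.2% and 57.9% of the control. This was the 1 cluster whose sum stayed within 2-fold of the control at each duration. In c25458_g1 the member c25458_g1_i3 had 229 reads in the control, 26 at 24 h, 7 at 36 h and 3 at 72 h. Its partners c25458_g1_i1 and c25458_g1_i2 had 109 and 118 reads in the control, 10 and 11 at 24 h, 1 each at 36 h, and 400 and 403 at 72 h. A further partner was read at 72 h alone, with 368 reads, and the cluster sum at 72 h came to 255.6% of the control. No partner was 2-fold above the control at all 3 durations, and 4 were so at 72 h with at least 50 scaled counts, 3 of them in c25458_g1. These 2 clusters were singled out after their values were seen.

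How many of these contigs the authors' deposited tables call depends on the column read. By the status column of the authors' deposited tables, 166 of the 169 members were lower than the control at 24 h, 168 at 36 h and 144 at 72 h. This status does not require a low adjusted p-value, since c25987_g1_i8 has it at 36 h with 0.9604 (unadjusted 0.0223) in the authors' deposited table. The share of all contigs with this status was not counted, so these counts cannot be set against one. In the authors' deposited table for 24 h, 64 of the 169 members had an adjusted p-value under 0.05 and a lower level than the control, in that for 36 h 70, and in that for 72 h 51. Over all contigs with 200 scaled counts in the control, 0.778% were called lower in this way at 24 h, 0.37% at 36 h and 0.213% at 72 h. The members were chosen on the same libraries, so the difference from these shares is built in. By the adjusted p-values of the authors' deposited tables, 32 members were called at each of the 3 durations and 73 at none. This overlap was not counted over all contigs, and the 3 comparisons share the control library, so it describes the members alone. Called members had a median of 2342 scaled counts in the control at 24 h, 2353 at 36 h and 3366 at 72 h, and those not called 736, 656 and 646. For c57626_g1_i1 the authors' deposited tables give an adjusted p-value of 0.176 for 24 h, 0.000274 for 36 h and 0.0391 for 72 h, and for c19261_g3_i1 of 0.0258, 1.35e-05 and 0.00828. These p-values come from 1 library per condition, with no replicates behind the spread they assume.

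In the authors' deposited tables that compare 72 h with 24 h and 72 h with 36 h, 0 of the 169 members had an adjusted p-value under 0.05 in either direction. At an unadjusted p-value under 0.05, 10 members were higher and 3 lower at 72 h than at 24 h, and 8 were higher and 3 lower at 72 h than at 36 h. Over all contigs with 200 scaled counts in the control, the authors' deposited adjusted p-values called 0.405% higher and 0.0249% lower at 72 h than at 24 h, and 0.626% higher and 0.0284% lower at 72 h than at 36 h. Their unadjusted p-values called 2.35% higher and 1.34% lower at 72 h than at 24 h, and 2.18% higher and 0.761% lower at 72 h than at 36 h. The 4-fold differences of members at 72 h from 24 h and 36 h given above are thus not called by the authors' deposited adjusted p-values. So few contigs are called over all, however, that 0 of 169 lies near those shares and is no result about the members. The 5 deposited tables used here hold no comparison of 36 h with 24 h, so no such call can be given for that pair.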

How the data were processed

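The authors deposited 5 tables, each comparing 2 of the 4 libraries over the same contigs. Tools named in the submitters' processing notes are cutadapt, Bowtie2 and DESeq. Tool settings, the assembler and the rule for reads matching several contigs are not stated there or in the labels. The read counts per contig were deposited by the authors without normalization. Beside them the authors deposited a scaled signal, the count divided by a size factor set anew in each table, per the file headers and values. The authors also deposited a fold change, which is a linear ratio, and a p-value with its adjusted form.

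From the counts, median-of-ratios size factors were computed over contigs read in all 4 libraries, giving a factor of 0.885 (control), 1.13 (24 h), 1.15 (36 h) and 0.89 (72 h). The ratio of (scaled count + 1) chose the members. Percentages and folds of single contigs with intervals use scaled counts with nothing added. Desiccated libraries were compared at 4-fold and 50 scaled counts in 1 of the 2. With 1 library per group, contigs were not tested and no p-values were calculated. The members, the rule and the named contigs were chosen with earlier results of these data known. Named contigs are the 2 highest in the control, the 2 with the lowest upper bound, the 2 nearest the threshold on each side, the largest cluster, and up to 2 higher and 2 lower per pair of desiccated libraries, ranked by the bound of the interval nearest to 1. That rule also asked for clusters with a partner 2-fold above the control at all 3 durations, of which there were 0. Any other contig is named as chosen after its values were seen. The rule was run on simulated counts that held counting error and no spread between thalli. That run checks the calculation only and does not bear on how firm the members are. Calculations used Python 3.11.15, numpy, pandas and scipy 1.17.1, and edgeR 4.0.16 for the TMM factors. Alternatives are named in the closing section.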

Additional observations from a re-analysis of the deposited data

How the results depend on the processing

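No paired analysis was possible because each condition had 1 library. Of 293 alternative values, 179 stayed close to those reported and 114 did not. Close means within a factor of 1.5, with a narrower limit for the shares of reads. Some values could not move, so this tally does not measure how firm the results are. Contigs added by a control minimum of 50 cannot reach 50 scaled counts after desiccation, so the counts of members 4-fold apart repeat. The 31 members at least 64-fold lower at every duration also stay the same when only the ratio limit is changed. Scaling moved little, since library totals gave 184 members (169 shared with the set), upper quartiles 176 (160 shared) and TMM factors 164 (all shared). The members' share of control reads was 2.25% with library totals, 2.20% with upper quartiles, 2.19% with TMM, 2.19% with the authors' scaled values and 2.20% with 5 in place of 1 added to the counts, and their share of all desiccated reads 0.0579%, 0.0526%, 0.0524%, 0.0522% and 0.0534%, against 2.21% and 0.0539% as reported. Leaving out the 2 most abundant members gave 1.38% of control reads. The authors' scaled values left 2 members with at most 3 reads in each desiccated library, and they gave no value for 36 h against 24 h. The cut-offs changed the set far more. A control minimum of 50 gave 338 members in 259 clusters (242 by cluster sum), 2.24% and 0.0548% of reads, a median of 4.23% at 24 h, and 60 members with at most 3 reads throughout. A minimum of 1000 gave 90 members in 48 clusters (47 by sum), 2.15% and 0.0513% of reads, medians of 1.19% at 24 h and 1.80% at 72 h, and 0 with at most 3 reads. A ratio at least 4-fold below the control gave 555 members in 304 clusters (257 by sum), 4.04% and 0.267% of reads, medians of 7.41%, 11.5% and 11.7%, 114 called by the authors' deposited table at 24 h, and 105, 108 and 55 members 4-fold apart between 36 h and 24 h, 72 h and 24 h, and 72 h and 36 h. A ratio at least 16-fold below the control gave 72 members in 42 clusters (41 by sum), 1.55% and 0.00878% of reads, medians of 0.958%, 0.708% and 1.26%, and 4, 7 and 7 members 4-fold apart. Without the condition on 36 h the set held 292 contigs and without that on 72 h 331. With reads summed per cluster first, 102 clusters met the rule. For those 3 pairs of libraries, 21, 30 and 14 members were apart as reported. At 2-fold and 20 scaled counts it was 62, 68 and 74, at 4-fold and 20 it was 37, 52 and 32, at 4-fold and 200 it was 8, 17 and 1, at 8-fold and 50 it was 10 for 36 h and 24 h and 8 for 72 h and 36 h, and with members summed per cluster it was 9 clusters for 72 h and 36 h. With 50 scaled counts asked for in the library outside the pair it was 5 for 72 h and 36 h, 2 higher and 3 lower. At 2-fold and 20, 37 members were higher and 37 lower at 72 h than at 36 h, so the excess of higher members there depended on the cut-off. At most 0, 1 and 10 reads in each desiccated library were found for 1, 2 and 16 members, and 1 cluster sum stayed within 2-fold of the control. The authors' own lower status, not counted over all contigs, held for 166, 168 and 144 members. An adjusted p-value under 0.01 in the authors' deposited table held for 23 members at 72 h. The causes of these changes, beyond the cut-offs themselves, were not tested. Depth limits the strongest ratios, as 31 members at 24 h, 29 at 36 h and 26 at 72 h had at most 3 reads. Summing per cluster, the minimum in the library outside the pair, leaving out the 2 most abundant members and the band of 50 to 500 scaled counts were added after the data were seen.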

Other observations

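Contigs at or under 12.5% of the control at only 1 or 2 durations, again with 200 scaled counts in the control, outnumbered those at all 3. Such a level was found for 614 contigs at 24 h alone, 151 at 36 h alone and 129 at 72 h alone, and for 162 contigs at 24 h and 36 h, 123 at 24 h and 72 h and 78 at 36 h and 72 h. Their medians at the remaining durations stood well under the control too. The 614 contigs stood at a median of 38.7% of the control at 36 h and 30.9% at 72 h. The 162 contigs stood at 32.5% at 72 h, the 123 at 22.5% at 36 h and the 78 at 25.9% at 24 h. The control library is common to all these ratios, and these groups were chosen by them.

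In the opposite direction, 444 contigs exceeded the control by 8-fold or more at all 3 durations with at least 200 scaled counts in each desiccated library. The minimum there is set on 3 libraries and not on 1, so the 444 and the 169 are not counts by the same rule.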
